A study of Homo sapiens with 6 samples.

Results

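The 10 genes described here run the decision of a cell to leave G1 and copy its DNA: the D-type cyclins CCND1, CCND2 and CCND3, their kinases CDK4 and CDK6, the E-type cyclins CCNE1 and CCNE2, their kinase CDK2, the inhibitor CDKN1B (p27) and the retinoblastoma gene RB1. They were chosen by gene symbol, and all 10 were found among the 40205 gene symbols of the count table. RNA-seq had been run on cells labelled HepG2, the name of an established human liver cancer cell line, cultured for 24 h after plating. The control group held 3 untreated samples (Control-1 to Control-3). The CLs-treated group held 3 samples (CLs-1 to CLs-3) kept for a further 24 h with cationic liposomes (CLs), particles made of the cationic lipid DOTAP, cholesterol and a PEG-bearing lipid. The sample labels give the dose as 120 μM. The study's text gives the same figure in μg/ml for its exposures, but in μM in the methods of its cell cycle assay. No allele, transgene or sorting step is named for either group. Nothing in the labels says whether samples came from separate cultures, so the p-values measure the spread between these samples, which may be technical.

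Growth signals raise D-type cyclins, which bind CDK4 or CDK6 and begin the phosphorylation of RB1. Phosphorylated RB1 lets go of E2F transcription factors, E2F switches on the E-type cyclins and the genes of DNA replication, and cyclin E with CDK2 completes the phosphorylation of RB1. CDKN1B binds and blocks cyclin E-CDK2. Much of this control is exerted on protein stability and phosphorylation, which RNA counts do not measure.

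After 24 h with CLs, 0 of the 9 G1 genes tested passed the test for a change, beside 13 of all 15047 genes tested. CDK2 and CDKN1B were the most even across the 6 libraries. Their 95% intervals lay within a fold of 0.67 to 1.5, as did those of 48.7% of all genes tested. The mean of both E-type cyclins and of CDK4 was higher in the CLs-treated group, and that of CCND1, CCND3 and CDK6 lower. The libraries of the groups overlapped in every case, and groups that did not overlap were seen in 11.5% of all genes tested. The balance of CCND1 to CCND3 differed 3.54-fold between libraries of the control group and 3.85-fold between libraries of the CLs-treated group. CCND2 was at 0 counts in 5 of 6 libraries.

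Promoter sequences from RefSeq (GRCh38.p14) were matched by symbol for 6 of the 10 genes, 9 start sites in all. CCND1, CCND2, CCNE2 and CDK2 were not matched, and the entry of RB1 lies inside the gene, away from its principal start. The 250 bases before each start were searched for the E2F letters TTTCCCGC, TTTCGCGC, TTTGCCGC and TTTGGCGC on both strands, and for the E-box CACGTG, which reads the same on both strands and is bound by MYC and related factors. The E2F letters were in 0 of these 9 promoters, in 10 of 24 promoters of E2F target genes (41.7%) and in 2.79% of all 35116 promoters. The 9 include the entry inside RB1, and they are too few for 0 to be told from the share of all promoters. The E-box was in 1 of the 9 promoters, that of CDK4, where it occurred 3 times, and in 6.34% of all promoters. A count of 3 or more was found in 28 promoters, 0.0797% of all. A match is a description of letters and says nothing of binding in these cells. Near matches and bases after the start were not searched, so a promoter without a match may still hold E2F sites. The promoter of CDK4 is shown because of these repeats, with each E-box in capitals, and that of CCNE1 because it is known as an E2F-driven gene and holds neither motif. CDK4 lies at chr12:57752311-57752560 on the minus strand and CCNE1 at chr19:29811741-29811990 on the plus strand, both read 5′ to 3′ up to the base before the start site.
CDK4: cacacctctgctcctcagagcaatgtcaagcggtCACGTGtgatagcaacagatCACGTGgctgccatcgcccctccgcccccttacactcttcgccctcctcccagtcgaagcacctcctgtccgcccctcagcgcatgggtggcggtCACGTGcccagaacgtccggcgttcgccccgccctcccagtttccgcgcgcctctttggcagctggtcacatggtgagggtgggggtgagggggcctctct
CCNE1: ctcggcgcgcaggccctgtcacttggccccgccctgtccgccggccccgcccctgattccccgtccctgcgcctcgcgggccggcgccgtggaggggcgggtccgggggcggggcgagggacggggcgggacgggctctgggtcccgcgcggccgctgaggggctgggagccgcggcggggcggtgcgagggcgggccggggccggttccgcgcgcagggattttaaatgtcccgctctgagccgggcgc

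Counts per library totalled 11418527 to 13998946, the highest being CLs-1 and the next 11784181 in Control-1. In CLs-1 22034 genes had any count, against 20614 to 20950 in the other libraries. The study's mapping statistics also give CLs-1 the most raw reads and the lowest mapped share. CPM, the count scaled to library size, was taken on TMM-scaled library totals, values of 3 samples follow the order of their numbers, and 3 counts, the most that a count of 0 allows, correspond to 0.208 to 0.263 CPM (counting error only). The labelled cell type was set against 15 hepatocyte markers, and the defining ones were near 0. ALB (albumin) was read 8 times in CLs-1 and never in the remaining 5 libraries, and AFP (alpha-fetoprotein) had at most 1 count in any library. The 15 markers summed to 8, 23 and 21 counts in the controls and to 163, 7 and 15 counts after CLs, CLs-1 being the one at 163. The epithelial keratins KRT8 and KRT18 each had at least 9024 counts in every library, whereas EPCAM and CDH1 had at most 9. The keratins were lower in every CLs-treated library than in any control, with log2 fold changes of -1.21 for KRT8 and -1.19 for KRT18. Both just missed the threshold (adjusted p = 0.0508, edgeR's quasi-likelihood test) and both were called by DESeq2, with the sample number as a block and with low counts kept. Fibroblast markers did not go one way. COL3A1, a collagen gene, had between 7456 and 11358 counts, COL1A1 between 764 and 2472 and PDGFRB between 167 and 275. Outside CLs-1, DCN had at most 5 counts, COL1A2 at most 2, THY1 at most 1 and LUM 0. The values below are therefore those of libraries labelled HepG2 in which hepatocyte genes were almost unread. CLs-1 stood apart. It held 466 counts of 6 steroidogenic markers against 11 to 32 elsewhere, 477 counts of 5 erythroid markers against 0 to 4, and 1044 counts of COL1A2 against at most 2. Of the first list CYP11A1 alone could be tested and was not called (adjusted p = 0.570, edgeR's quasi-likelihood test), and of the second none had enough reads for this test. With low counts kept in the same test, 2 steroidogenic (STAR, CYP11A1), 2 erythroid (HBB, HBA2), 2 fibroblast (COL1A2, THY1) and 1 hepatocyte marker (APOA1) were called as higher after CLs, each with its highest count in CLs-1. In the main test, with its filter, none of these lists held a call with or without CLs-1. Of the 9 fibroblast and endothelial markers, 3 had enough reads to be tested and none was called, and of the 5 leukocyte markers, CD68 alone was tested and was not called. Results that rest on CLs-1 are given with and without it.

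Of the 10 genes, 9 had enough reads for edgeR's quasi-likelihood test, all but CCND2. A call needed an adjusted p-value below 0.05 together with a fold above 1.5 or under 0.67, and 0 of the 9 were called, against 0.0864% of all 15047 genes tested (13 genes). At an unadjusted p-value under 0.05 the count was also 0 of 9 in this fit, beside 874 of all 15047 genes tested. It was 0 of 10 with DESeq2 and 3 of 9 with the sample number as a block (CCND1, CCNE1 and CCNE2). With low counts kept it was 4 of 10 (CCND3, CCNE1, CCNE2 and CCND2), CCND2 through 12 counts in CLs-1 alone. The share over all genes was not taken for these other fits. Over the whole table they called 104, 68 and 171 genes, so their counts are not read as a result about the G1 genes. DESeq2's Wald test, other scaling factors, no filter on low counts and each sample left out in turn also called 0. In 0 of the 9 genes did the 3 CLs-treated samples lie beyond the 3 control samples, a separation seen in 11.5% of all genes tested. Of the 9 log2 fold changes 5 were above 0, and their median was 0.07, beside 0.01 for all genes tested. In bulk RNA a smaller share of cells with a transcript and less transcript per cell cannot be told apart.

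**Figure D1:**
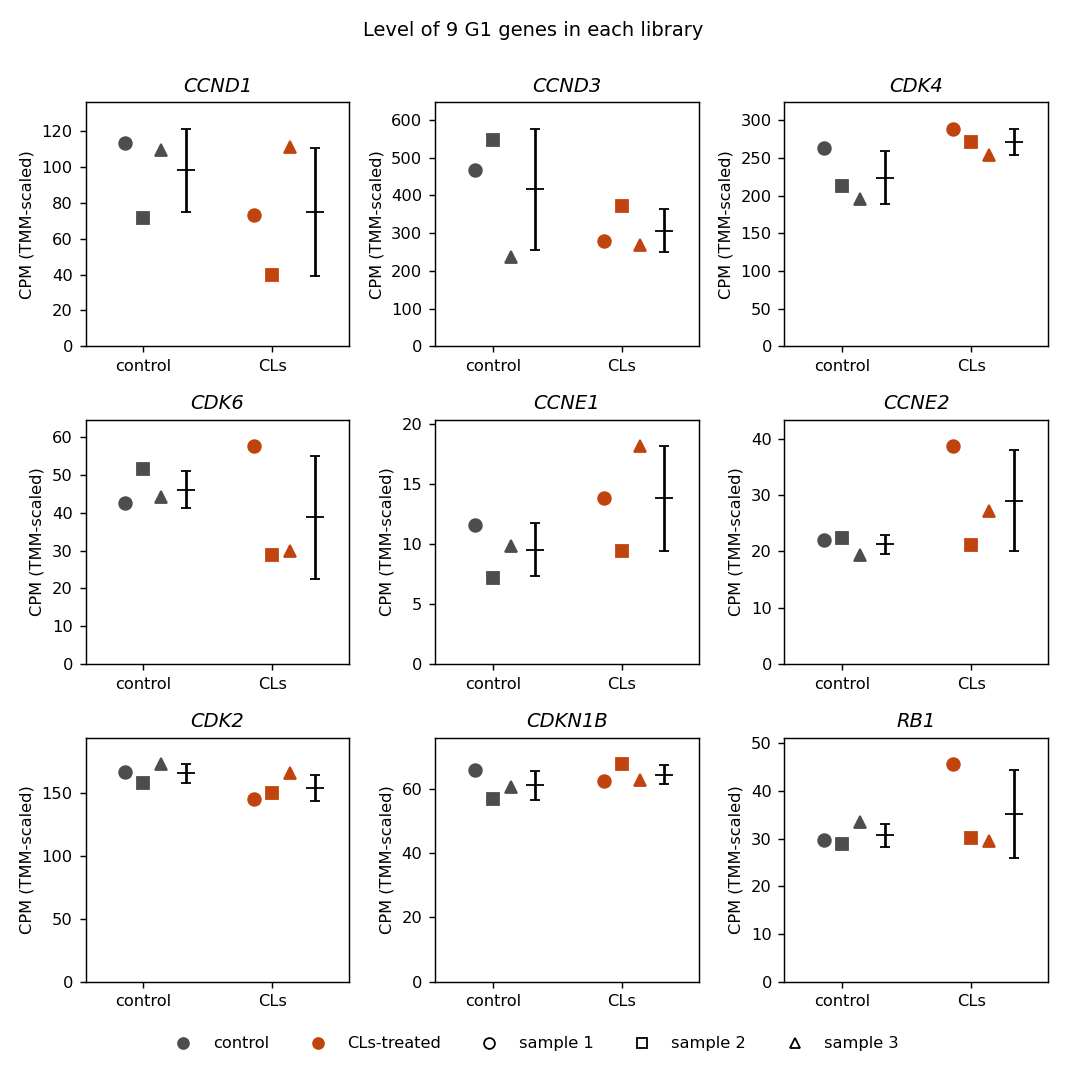
Level of the 9 tested genes in each library, in TMM-scaled CPM on axes that start at 0. Points are libraries (grey control, orange CLs-treated, with the shape giving the sample number) and bars are mean ± SD over 3 samples. The groups overlap in every panel, and CLs-1 is the highest library for CDK4, CDK6, CCNE2 and RB1.

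The D-type cyclins are the sensors of growth signals. CCND3 was read at 466, 546 and 236 CPM in the control samples and 278, 371 and 268 CPM in the CLs-treated samples. Control-3 was the lowest library of all, below each CLs-treated one, while the other 2 controls were the highest. The group means were 416.1 ± 160.9 CPM (SD, n = 3) and 305.8 ± 56.9 CPM (SD, n = 3), a log2 fold change of -0.44 with a 95% interval from -1.02 to 0.13 (adjusted p = 0.937, edgeR's quasi-likelihood test, Benjamini-Hochberg adjusted). With one library left out it lay between -0.73 (without Control-3, unadjusted p = 0.00137, adjusted p = 0.245, edgeR's quasi-likelihood test) and -0.20 (without Control-2). A pseudogene, CCND3P, is listed apart from CCND3, and reads of the pair could have been split in counting.

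CCND1 was read at 113, 71.4 and 109 CPM in the 3 control samples and at 73.2, 39.8 and 110.8 CPM in the 3 CLs-treated samples. CLs-3 lay between Control-3 and Control-1, and CLs-2 was the lowest library. Its log2 fold change was -0.39, with a 95% interval from -1.06 to 0.27 (adjusted p = 0.985, edgeR's quasi-likelihood test). Without CLs-3 it was -0.79, and without CLs-2 it was -0.09. Within groups CCND1 varied more than 98.1% of all genes tested, and CCND3 more than 96.3%, by the pooled SD of log2(CPM + 1).

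CCND2, the third D-type cyclin, was read 12 times in CLs-1 and in no other library, where a count of 0 allows at most 0.263 CPM. The 12 counts, 0.831 CPM, stood in the same library as the steroidogenic, erythroid and COL1A2 reads, and their part in this value was not tested. CCND2 had too few reads for the main test. The annotation has an antisense gene, CCND2-AS1, over its exons, and the strand setting of the counting was not given in the sources used here.

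The ratio of CCND1 to CCND3 counts inside a library does not depend on how libraries are scaled. It was 0.243, 0.131 and 0.463 in the controls, and 0.263, 0.107 and 0.413 after CLs. In both groups the library numbered 3 had the highest ratio and the library numbered 2 the lowest. Between libraries of the same number the CLs-treated value was 1.08, 0.820 and 0.892 times the control value. The groups differed by -0.11 on the log2 scale, less than the SD within them, which was 0.91 in the control group and 0.99 in the CLs-treated group (exact two-sided permutation p = 0.80, adjusted p = 0.90 over the 4 ratios tested). With 3 samples against 3, this exact permutation test cannot go below p = 0.10. The labels do not say that samples with the same number share a culture or a day.

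**Figure D2:**
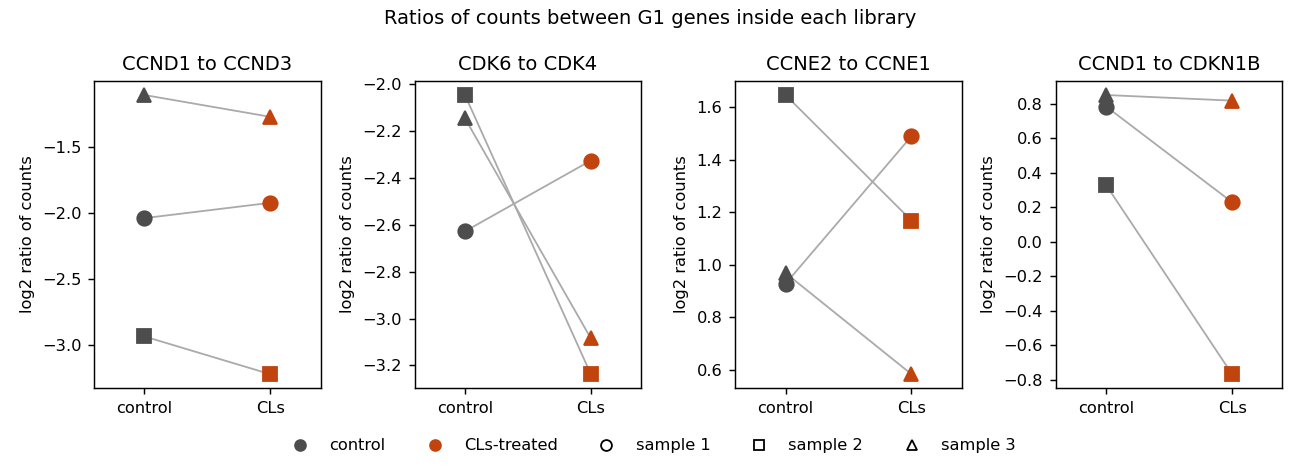
Log2 ratio of counts between pairs of G1 genes inside each library, control on the left and CLs-treated on the right of each panel. Thin lines join samples that carry the same number, which the labels do not tie to a shared culture. For CCND1 to CCND3 the order of the 3 numbers is the same in both groups, while for CDK6 to CDK4 the CLs-2 and CLs-3 libraries lie lowest and CLs-1 lies among the controls.

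CDK4 and CDK6 are the kinases that D-type cyclins activate. CDK4, whose promoter with its E-boxes is printed above, was read at 263, 213 and 196 CPM in the control samples and at 289, 271 and 254 CPM in the CLs-treated samples. All 3 CLs-treated libraries lay above Control-2 and Control-3, and CLs-3 lay below Control-1. The means were 224.2 ± 34.8 CPM for the controls and 271.6 ± 17.6 CPM after CLs (SD over 3 samples). The log2 fold change was 0.28 with a 95% interval from -0.04 to 0.60 (adjusted p = 0.899, edgeR's quasi-likelihood test). TSPAN31 lies on the other strand and overlaps CDK4 exons in the annotation, so reads in the shared stretch cannot be told apart without strand. The length of that stretch was not measured.

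CDK6 was read at 42.6, 51.6 and 44.2 CPM in the control samples and at 57.7, 28.8 and 29.96 CPM in the CLs-treated samples. CLs-1 was the highest of the 6 libraries, 1.92 times the next CLs-treated one, while CLs-2 and CLs-3 lay below every control. With all samples the log2 fold change was -0.25 (95% interval from -0.78 to 0.29, adjusted p = 0.998, edgeR's quasi-likelihood test). Without CLs-1 it was -0.65, which did not pass (unadjusted p = 0.00124, adjusted p = 0.234, edgeR's quasi-likelihood test). It was -0.07 without CLs-2 and -0.09 without CLs-3. CDK6 was the only one of the 9 genes whose groups did not overlap once CLs-1 was left out, a separation then seen in 27.3% of all genes tested. The ratio of CDK6 to CDK4 counts was 0.162, 0.242 and 0.226 in the controls and 0.199, 0.106 and 0.118 in the CLs-treated libraries (log2 difference -0.61, exact two-sided permutation p = 0.20, adjusted p = 0.60 over 4 ratios).

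The E-type cyclins activate CDK2 late in G1 and are themselves transcribed through E2F. CCNE1 was read at 11.5, 7.17 and 9.86 CPM in the control samples and at 13.8, 9.42 and 18.1 CPM in the CLs-treated samples, where CLs-1 and CLs-3 lay above every control and CLs-2 did not. Its log2 fold change was 0.53, the furthest from 0 among the 9 genes, with a 95% interval from -0.05 to 1.11 (adjusted p = 0.887, edgeR's quasi-likelihood test). With one library left out it lay between 0.29 (without CLs-3) and 0.74 (without CLs-2). CCNE1 counts ran from 83 to 207 per library, the fewest of the 9 genes.

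CCNE2 was read at 21.97, 22.5 and 19.3 CPM in the control samples and at 38.7, 21.2 and 27.2 CPM in the CLs-treated samples. CLs-1 was the highest and CLs-2 lay among the controls. Its log2 fold change was 0.45, with a 95% interval from -0.01 to 0.92 (unadjusted p = 0.0552, adjusted p = 0.863, edgeR's quasi-likelihood test), the smallest p-value among the 9 genes. Without CLs-1 it was 0.19. The ratio of CCNE2 to CCNE1 counts lay between 1.90 and 3.13 in the controls and between 1.498 and 2.81 in the CLs-treated libraries, with the group means 0.10 apart on the log2 scale (exact two-sided permutation p = 0.90, adjusted p = 0.90). INTS8, on the other strand, overlaps CCNE2 exons in the annotation, as LTO1 does those of CCND1 and PMEL those of CDK2.

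CDK2, the kinase of the E-type cyclins, was read at 166, 157 and 172 CPM in the control samples and at 145, 150 and 165 CPM in the CLs-treated samples. The spread between libraries was small, with the highest control 1.10 times the lowest. Its log2 fold change was -0.11 (95% interval from -0.38 to 0.17, adjusted p = 0.998, edgeR's quasi-likelihood test). CDKN1B, which holds CDK2 inactive, was read at 65.9, 56.9 and 60.7 CPM in the controls and at 62.5, 67.8 and 62.9 CPM in the CLs-treated samples, with the groups interleaved. Its log2 fold change was 0.07 (95% interval from -0.21 to 0.36, adjusted p = 0.998 from the same test). Among all genes tested, 4.55% varied less within groups than CDK2 and 5.38% less than CDKN1B. An interval within a fold of 0.67 to 1.5 was found for these 2 of the 9 genes and for 48.7% of all genes tested. The ratio of CCND1 to CDKN1B counts was 1.72, 1.25 and 1.80 in the controls and 1.17, 0.587 and 1.76 in the CLs-treated libraries (log2 difference -0.56, exact two-sided permutation p = 0.30, adjusted p = 0.60). That difference lay between -0.92 (without CLs-3) and -0.13 (without CLs-2) with one library left out.

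RB1, the brake on E2F that these kinases release, was read at 29.8, 28.8 and 33.4 CPM in the control samples and at 45.7, 30.2 and 29.5 CPM in the CLs-treated samples. CLs-1 was 1.51 times the next CLs-treated library, and CLs-2 and CLs-3 lay within the range of the controls. The log2 fold change was 0.20 (95% interval from -0.21 to 0.61, adjusted p = 0.998, edgeR's quasi-likelihood test), and without CLs-1 it was -0.039. The steroidogenic, erythroid and hepatocyte marker reads were also highest in CLs-1, and their part in the CLs-1 values of RB1, CCNE2 and CDK6 was not tested.

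**Figure D3:**
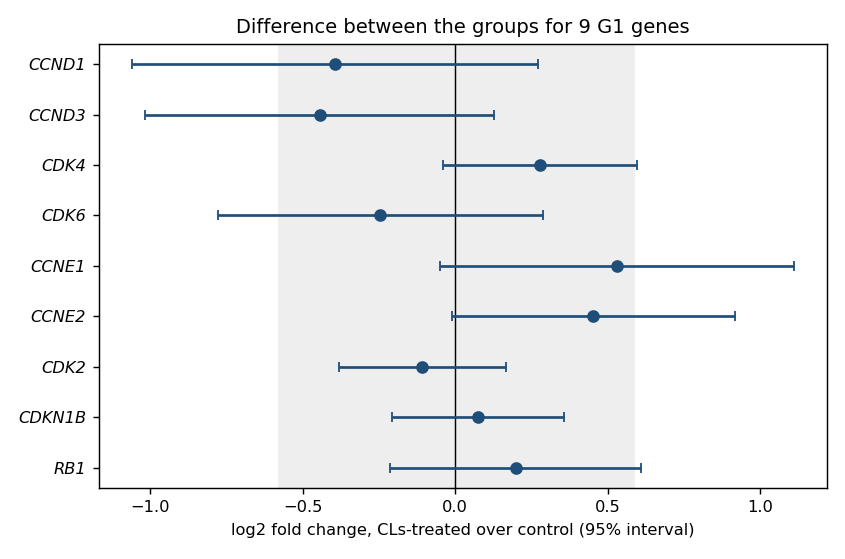
Log2 fold change of the CLs-treated over the control group with its 95% interval from edgeR's quasi-likelihood fit, for the 9 genes tested. The shaded band spans a fold of 0.67 to 1.5. The intervals of all 9 genes reach across 0, and those of CDK2 and CDKN1B lie inside the band.

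To compare levels between genes, CPM was divided by the length of the principal transcript in GENCODE 29, giving RPKM (reads per kilobase of transcript, scaled as CPM). In the control group CCND3 came first at 199.2 ± 77.0 RPKM (SD, n = 3), then CDK4 at 107.8 ± 16.8 RPKM and CDK2 at 71.9 ± 3.30 RPKM. CDKN1B and CCND1 followed at 23.0 ± 1.70 and 22.7 ± 5.37 RPKM. RB1 at 6.39 ± 0.513, CCNE2 at 6.37 ± 0.510, CCNE1 at 4.65 ± 1.08 and CDK6 at 3.97 ± 0.415 RPKM made up the lower end. Over the 6 libraries, neighbours in this order overlapped in range except CDK4 with CDK2, CDK2 with CDKN1B and CDK6 with CCND2. Per length, CCND3 and CDK4 were thus the leading D-type cyclin and D-type cyclin kinase in these libraries. The place of CDK6 rests on its long transcript of 11612 bases. With its other principal transcript of 1465 bases the control level would be 31.4 RPKM, above CDKN1B and CCND1 and still below CDK2 and CDK4.

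**Figure D4:**
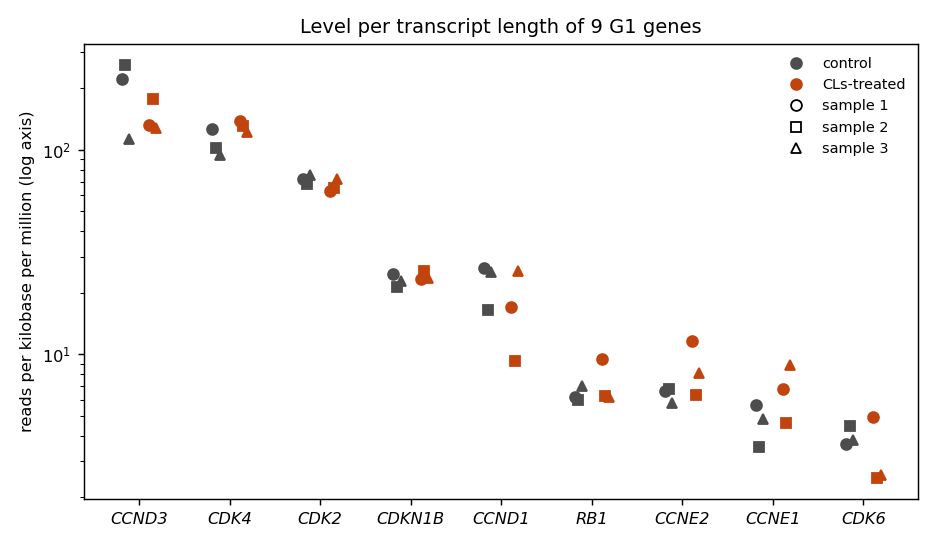
RPKM from the principal transcript, on a log axis, for the 9 tested genes in each library, ordered by the control mean. CCND3, CDK4 and CDK2 lie at or above 63.1 RPKM in every library, and RB1, CCNE2, CCNE1 and CDK6 at or below 11.6 RPKM.

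The genes that act with these 10 were read from lists of their roles. Of the 6 further CDK inhibitors, 0 were called in edgeR's quasi-likelihood test, and their median log2 fold change was 0.00. CDKN2B (p15), an INK4 inhibitor of CDK4 and CDK6, was read at 32.0, 40.7 and 46.6 CPM in the controls and at 31.4, 26.5 and 29.7 CPM in the CLs-treated samples. Its groups did not overlap, and its log2 fold change was -0.44 (unadjusted p = 0.0219, adjusted p = 0.690). CDKN2C (p18), of the same family, had a log2 fold change of 0.23 (adjusted p = 0.920), also with its groups apart. CDKN1A (p21), named here after its values were seen, varied from 716 to 1939 counts among the controls alone, and its log2 fold change was 0.36 (adjusted p = 0.998).

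Downstream of RB1, 0 of the 12 pocket proteins, E2F factors and their partners were called, and their log2 fold changes lay between -0.15 and 0.30 with a median of -0.06. RBL1 (p107), a relative of RB1, stood at 0.21 (adjusted p = 0.992, edgeR's quasi-likelihood test) and E2F4, an E2F that mostly represses, at -0.14 (adjusted p = 0.998). The 20 E2F target genes, most of which serve DNA replication, were all tested and 0 were called, 12 above 0 and 8 below, with a median of 0.02. Their summed level was 6561, 6348 and 6172 CPM in the controls and 6443, 6465 and 6560.3 CPM after CLs, so the groups overlapped. MYBL2, a transcription factor of proliferating cells, lay at -0.21 (adjusted p = 0.950, edgeR's quasi-likelihood test).

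Of the 11 genes that activate CDKs or mark cyclins and CDKN1B for destruction, 0 were called and the median was 0.01. SKP2, the subunit of the ubiquitin ligase that recognises CDKN1B, was read at 70.8, 57.4 and 64.6 CPM in the controls and at 57.1, 38.2 and 50.7 CPM in the CLs-treated samples. Its log2 fold change was -0.40 (unadjusted p = 0.0352, adjusted p = 0.783, edgeR's quasi-likelihood test), and its groups did not overlap. RBX1, the RING subunit of the same ligase, had the opposite sign, 0.31 (adjusted p = 0.790), with its groups also apart. Of the 10 regulators of D-type cyclins 0 were called, with a median of -0.04. STAT3, a transcription factor that raises CCND1, had a log2 fold change of -0.30 (adjusted p = 0.826) with its groups apart, and FOXO1, which raises CDKN1B, of -0.32 (adjusted p = 0.966). Of the 12 p53 target genes, 11 were tested and 0 were called, with a median of 0.01. Among them TP53I3 and SESN1 stood at 0.32 and 0.24 (adjusted p = 0.939 and 0.998).

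**Figure D5:**
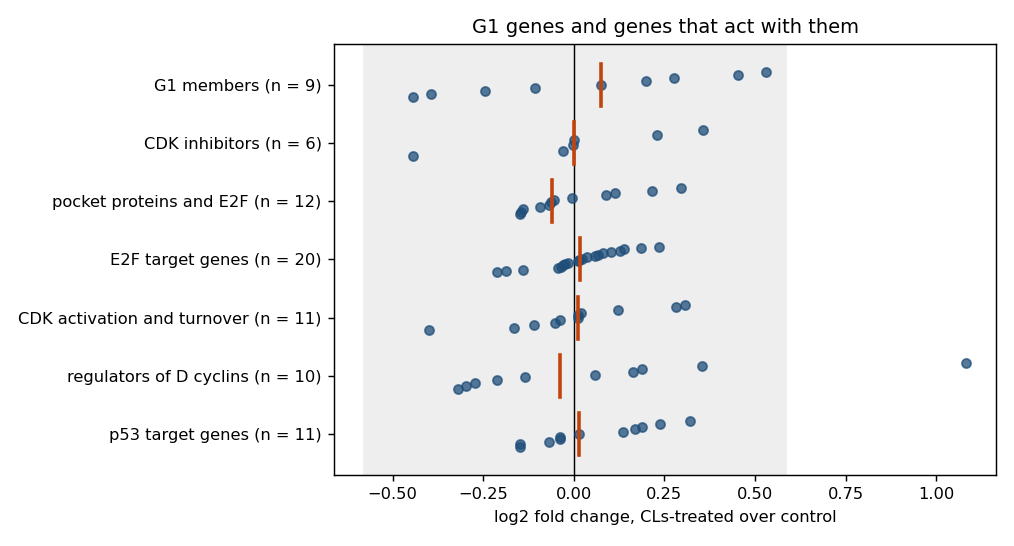
Log2 fold change of the CLs-treated over the control group for each tested gene of the G1 group and of 6 lists of genes that act with it. Points are genes, the vertical bar is the median of each list, and the shaded band spans a fold of 0.67 to 1.5. All points lie inside the band except EGR1, a growth-signal gene named after its values were seen, at 1.08. Its 70 counts in CLs-1 stand against at most 27 elsewhere, and without CLs-1 its log2 fold change is -0.29.

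The genes whose level ran most like that of CCNE2 over the 6 libraries, by Pearson correlation of log2(CPM + 1), were SUV420H1 (r = 0.996), PAK6 (r = 0.992) and TRNT1 (r = 0.991). For RB1 they were RBMS1 (r = 0.995), FANCB (r = 0.993) and ATF6 (r = 0.991). They were picked as the highest of all genes tested over 6 points in which CLs-1 is the highest for both CCNE2 and RB1, so the values are a description and no p-value is given.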

How the data were processed

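RNA from cells labelled HepG2, 3 control and 3 CLs-treated samples, was sequenced single-end on an Ion Proton instrument. The authors mapped filtered reads with MapSplice and deposited unnormalized counts, the whole number of reads per gene symbol. The submitters' processing notes name HTSeq 0.6.1 and the builds hg19 and GRCh37. The strand setting and the handling of reads with several matches are not given in the sources used here. The RPKM and EBSeq steps of the study are not part of the deposited counts.

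Counts were compared by group in edgeR 4.0.16 (R 4.3.3) with filterByExpr, TMM scaling and the quasi-likelihood F test, adjusted by Benjamini-Hochberg over 15047 genes. Standard errors were derived from the F statistic. Genes were called at an adjusted p-value under 0.05 and the fold criteria of the study, above 1.5 or below 0.67. EBSeq was not installed. DESeq2 1.42.0 was an alternative, and both were run on simulated counts. The simulated libraries were independent, with none standing apart as CLs-1 did and no effect of sample number. Those runs therefore do not cover these features of the data. Within a library, 4 ratios of counts were compared by exact permutation. Transcript lengths and overlaps come from GENCODE 29 (GRCh38), another build than that of the counts. No 2 replicates agreed within sampling noise. The squared difference over its sampling variance, averaged over genes, was 8.19 between Control-1 and Control-2. Control-3 stood further off, at 34.8 from Control-1 and 19.9 from Control-2. The value was 8.78 between CLs-2 and CLs-3, with CLs-1 at 31.0 from CLs-2 and 28.3 from CLs-3.

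The genes named were the 10 members, the 2 genes of smallest p in each list, marker genes, and the 3 genes most like RB1 and like the member of smallest p. One gene that this rule names is not reported here. Members and lists were chosen with earlier results of these data known. The promoter motifs and the other transcript of CDK6 were chosen after seeing the data. Further alternatives were scaling, filtering, a replicate block and each sample left out.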

Additional observations from a re-analysis of the deposited data

How the results depend on the processing

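No G1 gene was called under any alternative tried. Fewer or more genes were called over the whole table, 13 in the reported fit against 104 by the Wald test of DESeq2, 171 when low counts were kept, 8 with library size only and 3 to 7 with one sample left out. With the replicate number as a block, 68 genes were called, among them 0 of the G1 genes. Same-numbered samples had correlations of 0.0998, 0.122 and 0.333 between their deviations from the group means, against -0.240 to 0.0850 for unlike numbers. Each sample thus correlated best with its own number. The labels do not tie these samples to a shared culture, so the reported fit left the number out and a pairing cannot be set aside. With the block CCND1 had a log2 fold change of -0.48 (unadjusted p = 0.0141, adjusted p = 0.394, edgeR's quasi-likelihood test). Without it the value was -0.39 (unadjusted p = 0.220, same test). Of the epithelial markers, 0 of 2 tested were called in the reported fit and 2 with DESeq2, with the block and with low counts kept. Keeping low counts, an alternative added for the lists after seeing the data, also called 2 steroidogenic, 2 erythroid, 2 fibroblast and endothelial and 1 hepatocyte marker, where the reported fit called 0.

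Leaving out one sample gave log2 fold changes ranging between -0.039 (without CLs-1) and 0.31 for RB1, the one gene of the 9 whose sign turned, and of -0.29 without CLs-1 for EGR1 in place of 1.08. The log2 difference of the CCND1 to CCND3 ratio then ran from -0.56 to 0.43 and that of CCNE2 to CCNE1 from -0.31 to 0.15, so neither has a direction. For CDK6 to CDK4 it ran from -0.89 to -0.43 and for CCND1 to CDKN1B from -0.92 to -0.13. The number of G1 genes with non-overlapping groups was 0, and 1 (CDK6) without CLs-1, an alternative added after seeing the data. Per length, the other principal transcript would put CDK6 at 31.4 RPKM in place of 3.97 in the control group and at 26.4 in place of 3.33 in the CLs-treated group, and CCNE2 at 7.78 in place of 6.37 in the control group, by the length alone.

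CCND2, at 0 counts in 5 libraries, had too few reads for the main test. With 3 samples a group, the 95% intervals of 7 of the 9 genes, all but CDK2 and CDKN1B, hold both no change and a change of over 1.5-fold, so neither can be told from these samples.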
